A study of Mus musculus with 22 samples.

Results

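Microglia and complement genes were described here as a group of 33 genes, found in the deposited table by their symbols, out of 37786 genes listed. The group holds 12 genes for surface receptors and identity of microglia (Cx3cr1, P2ry12, P2ry13, Tmem119, Csf1r, Gpr34, Siglech, Fcrls, Selplg, Olfml3, Itgb5 and Aif1), 3 transcription factors (Spi1, Irf8 and Sall1), 6 complement genes (C1qa, C1qb, C1qc, C3, C4b and Itgam), 8 genes of immune receptor signalling (Trem2, Tyrobp, Fcer1g, Fcgr3, Inpp5d, Laptm5, Ly86 and Cd53), 2 lysosomal genes (Ctss and Cd68) and 2 genes of border macrophages and antigen presentation (Mrc1 and Cd74). RNA from undissociated anterior cingulate cortex (ACC) was sequenced in 22 male, wild-type C57BL/6J mice that entered the procedures at 8 weeks of age, and the study asked which genes respond when the input from the basolateral amygdala (BLA) to the ACC is activated again and again. All mice had received an AAV5-CamKIIa-ChR2-EYFP vector in the BLA, which places a light-gated cation channel in excitatory neurons, and an optic fiber in the ACC, and were housed singly after the implantation. In the 10 stimulated mice blue light was given for 20 min on 3 days of each of 3 weeks, 9 times in all, whereas in the 12 control mice the light stayed off, and tissue was taken 48 h after the last session. The design therefore holds the vector, the fiber and the surgery constant, and the fiber itself sits in the tissue that was sequenced.

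Microglia are the resident macrophages of the brain. They depend on signals through Csf1r for survival, sense nucleotides and fractalkine through P2ry12 and Cx3cr1, and are the main source of C1q in the brain. C1q starts the classical complement cascade, in which C4 and then C3 are cleaved and deposited on targets, and complement receptor 3, whose alpha chain is encoded by Itgam, takes up what carries the cleaved C3. Trem2 and the Fc receptors signal through the adaptors Tyrobp and Fcer1g, and the transcription factor PU.1, encoded by Spi1, holds much of this gene program together by binding to a purine-rich core sequence in DNA. In bulk tissue, fewer cells of a type and less RNA per cell cannot be told apart.

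All 33 genes passed the minimum of 10 counts in at least 10 mice, as did 17524 genes in all. The libraries held between 23090483 and 43668462 counts (median 32560084). Library numbers 1 to 11 (10 mice, 6 control and 4 stimulated) and 12 to 23 (12 mice, 6 and 6) formed 2 runs of numbers, called run 1 and run 2 below. They stood apart over most genes, although the labels do not say whether they are a batch. Mitochondrial genes took 1.63 to 4.81% of the counts in run 1 and 0.982 to 1.90% in run 2. Microglial markers were well detected, with a summed level of 442 to 782 CPM (counts scaled to a common library size) over 8 markers, while 5 markers of monocytes and neutrophils summed to 0.389 to 2.48 CPM and 4 markers of T and B cells to 0.137 to 1.05 CPM. For 5 genes, exons overlap those of another gene. Itgam shares 3450 of its 5024 exon bases with Gm49368 on the same strand, and Csf1r shares 873 of 5774 with Hmgxb3 on the opposite strand. The overlaps of Cx3cr1 (78 bases), Cd74 (12 bases) and P2ry12 (9 bases) are short. C4b has a close copy, C4a, and Fcgr3 has related Fc receptor genes, so their counts are uncertain. Only unique alignments were counted, and how this affects these genes was not tested.

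Promoters of these genes were read for the 6-letter core bound by PU.1, GAGGAA, on both strands (TTCCTC on the strand shown). Many of the genes moved together from mouse to mouse (below), but a link between the core and this was not tested. RefSeq's promoter table held 24 of the 33 genes and lacked C1qa, C4b, Cd74, Csf1r, Gpr34, Selplg, Spi1, Tmem119 and Tyrobp. The core stood in the 250 bases before the start of 14 of these 24 (58.3%) and of 6252 of all 27025 promoters (23.1%), and in the last 100 bases of 10 of 24 (41.7%) against 9.76% of all. A match of 6 letters is a description of the sequence and not a binding site. The windows below belong to 6 genes that are also compared in the text. Coordinates are of GRCm38.p6, the sequence reads 5′ to 3′ in the direction of transcription and ends at the base before the start, and capitals mark the core.

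C1qb (chr4:136886201-136886450, minus strand): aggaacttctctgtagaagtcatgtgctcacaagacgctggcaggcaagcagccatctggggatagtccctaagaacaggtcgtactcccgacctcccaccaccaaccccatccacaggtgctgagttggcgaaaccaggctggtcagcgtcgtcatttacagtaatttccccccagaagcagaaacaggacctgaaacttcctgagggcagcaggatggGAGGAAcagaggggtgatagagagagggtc
Aif1 (chr17:35176053-35176302, minus strand): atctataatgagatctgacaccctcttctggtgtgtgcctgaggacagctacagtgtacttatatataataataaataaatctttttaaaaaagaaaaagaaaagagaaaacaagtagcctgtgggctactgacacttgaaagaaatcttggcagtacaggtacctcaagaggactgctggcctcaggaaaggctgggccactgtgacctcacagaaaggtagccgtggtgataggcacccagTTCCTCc
Trem2 (chr17:48346151-48346400, plus strand): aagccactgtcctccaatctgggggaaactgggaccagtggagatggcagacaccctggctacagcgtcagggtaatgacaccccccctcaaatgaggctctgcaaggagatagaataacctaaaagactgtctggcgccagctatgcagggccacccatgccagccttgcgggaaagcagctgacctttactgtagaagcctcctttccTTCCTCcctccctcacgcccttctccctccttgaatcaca
Inpp5d (chr1:87620062-87620311, plus strand): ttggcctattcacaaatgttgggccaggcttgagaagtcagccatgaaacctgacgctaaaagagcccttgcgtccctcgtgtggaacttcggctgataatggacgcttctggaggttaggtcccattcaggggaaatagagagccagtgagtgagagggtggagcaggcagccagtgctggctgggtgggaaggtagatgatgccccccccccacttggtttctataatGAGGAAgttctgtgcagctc
Ctss (chr3:95526536-95526785, plus strand): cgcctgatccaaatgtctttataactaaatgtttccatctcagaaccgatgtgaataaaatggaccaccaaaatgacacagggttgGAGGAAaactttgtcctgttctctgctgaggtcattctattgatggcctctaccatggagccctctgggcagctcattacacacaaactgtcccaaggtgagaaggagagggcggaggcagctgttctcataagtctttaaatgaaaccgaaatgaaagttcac
C1qc (chr4:136892915-136893164, minus strand): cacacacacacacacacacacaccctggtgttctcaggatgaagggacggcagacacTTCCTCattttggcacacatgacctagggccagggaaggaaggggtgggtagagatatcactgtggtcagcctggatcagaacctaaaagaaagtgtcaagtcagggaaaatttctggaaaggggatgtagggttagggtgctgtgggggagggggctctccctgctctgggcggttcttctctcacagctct

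In C1qb, Aif1, Trem2 and Inpp5d the core began 30, 7, 40 and 20 bases before the start, whereas in Ctss and C1qc it began 164 and 193 bases before it. The windows of C3, Cx3cr1, P2ry12, Sall1, Fcer1g, Irf8, Itgb5, Ly86, Olfml3 and Siglech did not hold these letters. In run 1 the median correlation (r, below) of these genes with the other members ran from 0.43 for C3 to 0.92 for Ly86. That of the genes with the core ran from 0.44 for Mrc1, which held it 3 times, to 0.93 for Ctss.

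Levels were first compared between genes per length, as CPM per kb of exon (RPKM, mean ± SD over all 22 mice). C1qb, a chain of the C1q molecule, was the highest at 124 ± 38.2 RPKM, followed by Ctss, the lysosomal protease cathepsin S, at 122 ± 34.2 RPKM. These did not differ beyond their spread, since C1qb was above Ctss in 13 of 22 mice. Ctss was above the third gene, C1qa (58.6 ± 17.6 RPKM), in 22 of 22 mice. Tyrobp (51.7 ± 21.6 RPKM), the signalling adaptor of Trem2, and C1qc (45.1 ± 12.9 RPKM), the remaining C1q chain, came next on this scale. Among receptors, Csf1r had 32.6 ± 9.56 RPKM, P2ry12 28.0 ± 5.77 RPKM, Tmem119, a membrane protein typical of microglia, 26.2 ± 3.68 RPKM, and Cx3cr1 15.6 ± 3.35 RPKM. The other genes of surface and identity lay between 26.6 ± 7.22 RPKM for Itgb5 and 6.93 ± 2.42 RPKM for Aif1, with Fcrls (18.9), Selplg (17.6), Gpr34 (16.3), Siglech (12.5), P2ry13 (11.0) and Olfml3 (7.10) in between. Among genes of immune receptor signalling, Fcer1g (23.9), Laptm5 (20.9) and Fcgr3 (18.4) were higher on this scale than Cd53 (11.1), Ly86 (7.39), Trem2 (5.39) and Inpp5d (2.43). Cd68 had a level of 18.5 RPKM and Cd74 of 13.9 RPKM. Transcription factors were lower, at 3.16 ± 1.04 RPKM for Sall1, 2.51 ± 0.692 RPKM for Spi1 and 1.51 ± 0.251 RPKM for Irf8. The later complement components were low as well, with C4b at 3.80 ± 2.06 RPKM, Itgam at 1.06 RPKM and C3 last of all 33 genes at 0.185 ± 0.175 RPKM. C3 rested on 2 to 105 counts per mouse. Per longest transcript in place of exon bases, C1qc had 72.3, Selplg 32.5, Aif1 12.1 and Irf8 3.08 RPKM, so that C1qc was above C1qa and Olfml3 rather than Aif1 was the lowest of the surface class. Among mice of the same group and run, the coefficient of variation of 30 of the genes lay between 14.8% for Laptm5, a lysosomal membrane protein, and 33.5% for C4b, with 19.4% for C1qa and 28.1% for Tyrobp. Mice differed most for C3 (94.1%), Cd74 (65.3%), the invariant chain of MHC class II, and Mrc1 (42.7%), the mannose receptor of border macrophages, whose level was 0.782 RPKM.

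**Figure D1:**
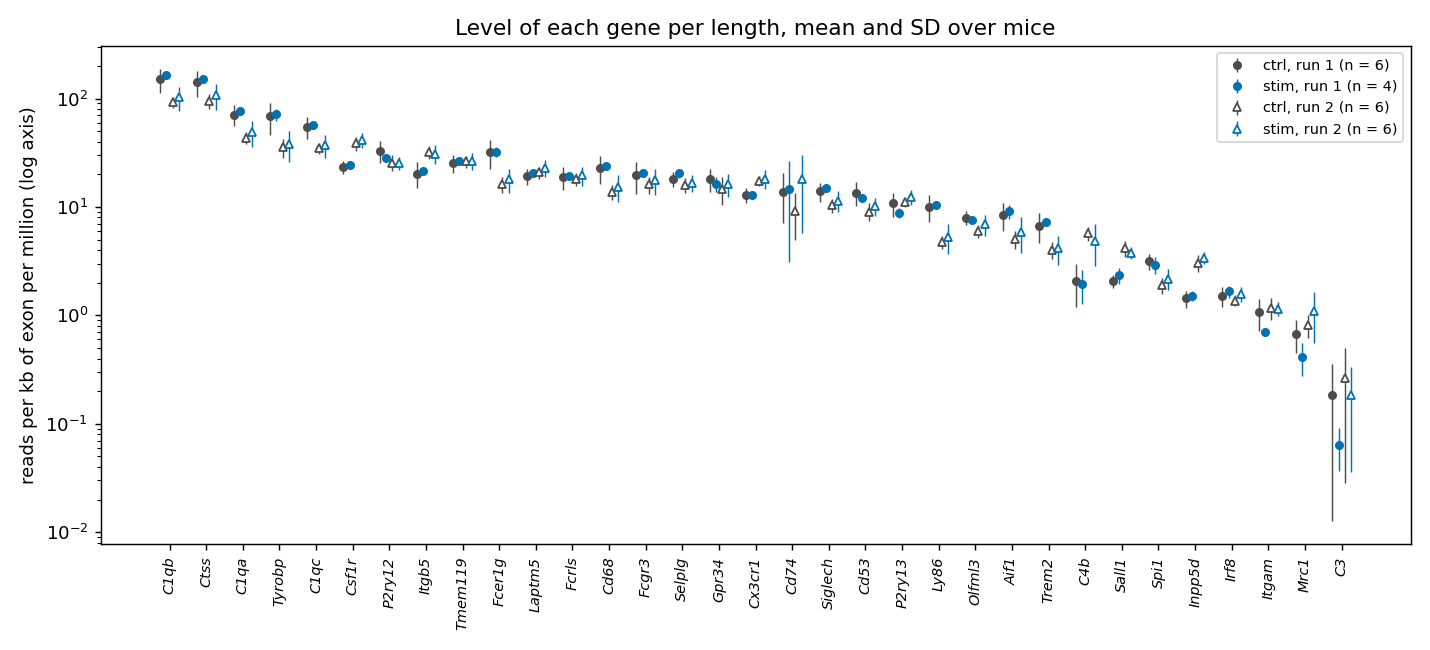
Level of each gene as CPM per kb of exon (log axis), given as the mean and SD over mice for control (grey) and stimulated (blue) mice of run 1 (filled circles) and run 2 (open triangles). C1qb and Ctss had the highest levels at 124 and 122 RPKM over all mice, and C3 the lowest at 0.185 RPKM.

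To determine whether stimulation changed these genes, stimulated mice were compared with controls using edgeR's quasi-likelihood test with the run as a term and Benjamini-Hochberg adjustment over all genes tested. None of the 33 genes passed the test, with 0 at an adjusted p under 0.05 and 0 at an unadjusted p under 0.05, against 11.5% of all genes at that unadjusted level. Over all genes 0 passed at an adjusted p under 0.05 as well. The DESeq2 Wald test and limma voom each called 0 genes of the group at an adjusted p under 0.05. Over all 17524 genes these tests called 33 and 1, respectively. At an unadjusted p under 0.05 each had 1 gene of the group (C3 and Irf8, respectively), against 12.5% and 16.3% of all genes. The fitted log2 fold change was positive for 27 of the 33 genes, with a median of 0.08, and positive for 52.6% of all genes, with a median of 0.009. The median was 0.02 without stimulated mouse 10 and 0.13 without stimulated mouse 7. Since the genes move together from mouse to mouse, the 27 are not independent. In this fit, leaving aside Cd74 and C3, no 95% interval of the other 31 genes reached beyond -0.60 or 0.48 on the log2 scale. In the fit of run 1 alone the interval of Mrc1 reached down to -1.30 and that of Itgam to -1.11.

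The chains of C1q differed between stimulated and control mice by less than the spread between mice. C1qa ranged from 58.2 to 94.5 CPM (median 72.8) in the controls of run 1, from 75.1 to 86.7 (median 79.4) in stimulated mice of run 1, from 36.5 to 53.3 (median 46.3) in the controls of run 2 and from 32.3 to 66.3 (median 52.3) in stimulated mice of run 2. For C1qb the ranges in the same order were 110.0 to 206 CPM (median 168), 169 to 187 (median 178), 85.8 to 113 (median 101) and 73.3 to 144 (median 109.9). For C1qc they were 81.4 to 133 CPM (median 107), 104 to 119.9 (median 109), 55.1 to 77.6 (median 69.8) and 48.9 to 97.9 (median 70.9). In both runs the ranges of stimulated mice overlapped those of controls, and in run 1 they lay within them. The log2 fold changes were 0.14 ± 0.11 (SE, n = 22 mice) for C1qa, 0.14 ± 0.11 for C1qb and 0.08 ± 0.11 for C1qc, with edgeR adjusted p-values of 0.62, 0.64 and 0.787. For C1qb the interval ran from 0.939 to 1.29 as a fold.

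C3 and C4b, the components that act after C1q, and Itgam, which encodes the alpha chain of the receptor for cleaved C3, all had negative fitted values, and none passed the test. C3 ranged from 0.239 to 2.57 CPM (median 0.631) in the controls of run 1, from 0.229 to 0.536 (median 0.275) in stimulated mice of run 1, from 0.230 to 3.64 (median 1.06) in the controls of run 2 and from 0.0495 to 2.29 (median 0.703) in stimulated mice of run 2. Its log2 fold change was -0.94 ± 0.49 (SE), with an interval from -1.94 to 0.06, p = 0.065 and an adjusted p of 0.463 in edgeR. The groups overlapped in both runs. A few controls lay high, with 3.64 CPM in control 8 and 2.57 CPM in control 2, and the fitted value was -0.66 without control 8 and -1.25 without stimulated mouse 6. Itgam ranged from 2.68 to 7.60 CPM (median 5.35) and from 3.24 to 3.95 (median 3.48) in controls and stimulated mice of run 1, and from 3.86 to 7.66 (median 6.16) and 4.70 to 7.02 (median 5.69) in those of run 2. All 4 stimulated mice of run 1 were below 5 of its 6 controls, whereas the groups overlapped in run 2. The log2 fold change of Itgam was -0.28 ± 0.15 (SE), with p = 0.077 and an adjusted p of 0.481 in edgeR. How reads on the exon bases shared with Gm49368 were counted was not given in the sources used here, so the level of Itgam is uncertain. C4b ranged from 5.83 to 18.5 CPM (median 12.0) and from 7.16 to 15.8 (median 10.7) in controls and stimulated mice of run 1, and from 29.0 to 40.9 (median 30.9) and 14.0 to 45.5 (median 23.3) in those of run 2. In run 2, 4 of 6 stimulated mice were below all controls and 1 was above them all. The log2 fold change of C4b was -0.17 ± 0.19 (SE), with an edgeR adjusted p of 0.752. With the mitochondrial share added to the fit (below), the values of C3, Itgam and C4b were -0.70, -0.12 and -0.002.

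Receptors that define microglia were close to even between the groups. Tmem119 ranged from 45.6 to 70.8 CPM (median 61.5) and from 56.8 to 67.1 (median 60.5) in controls and stimulated mice of run 1, and from 50.4 to 71.1 (median 60.5) and 49.0 to 75.9 (median 64.4) in those of run 2. Cx3cr1, the fractalkine receptor, ranged from 45.9 to 68.2 CPM (median 61.1) and from 55.6 to 62.3 (median 57.5) in run 1, and from 66.1 to 90.4 (median 78.7) and 60.4 to 102 (median 86.5) in run 2, again with controls first. Their log2 fold changes were 0.04 ± 0.09 (SE) and 0.03 ± 0.09, with intervals from -0.14 to 0.22 and from -0.15 to 0.21. Csf1r, the receptor for Csf1 and Il34, ranged from 106 to 154 CPM (median 138) and from 134 to 159 (median 135) in controls and stimulated mice of run 1, and from 178 to 266 (median 223) and 194 to 297 (median 243) in those of run 2, with a log2 fold change of 0.09 ± 0.08 (SE). P2ry12, the ADP receptor that steers microglial processes, was 1 of 2 genes of this class with a negative value, at -0.11 ± 0.10 (SE). It ranged from 62.2 to 103 CPM (median 83.9) and from 64.4 to 77.7 (median 73.2) in controls and stimulated mice of run 1, and from 52.9 to 79.7 (median 65.1) and 51.2 to 78.5 (median 65.2) in those of run 2. The other was P2ry13, a related nucleotide receptor, at -0.04 ± 0.11. With the mitochondrial share added to the fit (below), P2ry12 and P2ry13 had positive values of 0.03 and 0.08. The remaining members of the class had log2 fold changes of 0.18 for Aif1, which encodes the actin-binding protein IBA1, 0.13 for Siglech, a sialic acid-binding lectin, 0.12 for Selplg, the ligand of P-selectin, 0.09 for Olfml3, a secreted matrix protein, 0.08 for Fcrls, an Fc receptor-like protein, 0.02 for Gpr34, a lysophospholipid receptor, and 0.01 for Itgb5, an integrin chain. Their standard errors lay between 0.09 and 0.15. The transcription factors had log2 fold changes of 0.17 ± 0.10 for Irf8, 0.07 ± 0.12 for Spi1 and 0.01 ± 0.09 for Sall1. Irf8 had the smallest p of the genes with positive values (p = 0.0867, edgeR adjusted p = 0.495).

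All 8 genes of immune receptor signalling and both lysosomal genes had positive fitted values that did not pass the test. Trem2, a lipid-sensing receptor, ranged from 22.4 to 44.6 CPM (median 32.5) and from 33.3 to 39.2 (median 35.8) in controls and stimulated mice of run 1, and from 15.9 to 23.7 (median 20.1) and 12.0 to 28.2 (median 18.5) in those of run 2. Its adaptor Tyrobp ranged from 28.7 to 65.5 CPM (median 45.8) and from 44.0 to 56.8 (median 44.6) in run 1, and from 18.1 to 28.3 (median 23.6) and 14.3 to 36.9 (median 25.4) in run 2. The log2 fold changes of both were 0.08 ± 0.14 and 0.08 ± 0.15 (SE). The other genes of the class had log2 fold changes of 0.13 for Laptm5, 0.12 for Inpp5d, 0.12 for Ly86, 0.11 for Fcgr3, a low-affinity receptor for IgG, 0.08 for its adaptor Fcer1g and 0.02 for Cd53, a tetraspanin of leukocytes. Ctss ranged from 132 to 254 CPM (median 202) and from 198 to 219.7 (median 204) in controls and stimulated mice of run 1, and from 98.1 to 149.7 (median 129.6) and 93.7 to 199 (median 141) in those of run 2, with a log2 fold change of 0.14 ± 0.12 (SE). Cd68, a glycoprotein of phagocyte lysosomes, ranged from 18.7 to 39.7 CPM (median 27.9) and from 28.6 to 31.6 (median 29.6) in run 1, and from 13.7 to 20.7 (median 18.0) and 13.5 to 26.6 (median 17.4) in run 2, with 0.12 ± 0.13. For these genes, too, the groups overlapped in both runs.

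**Figure D2:**
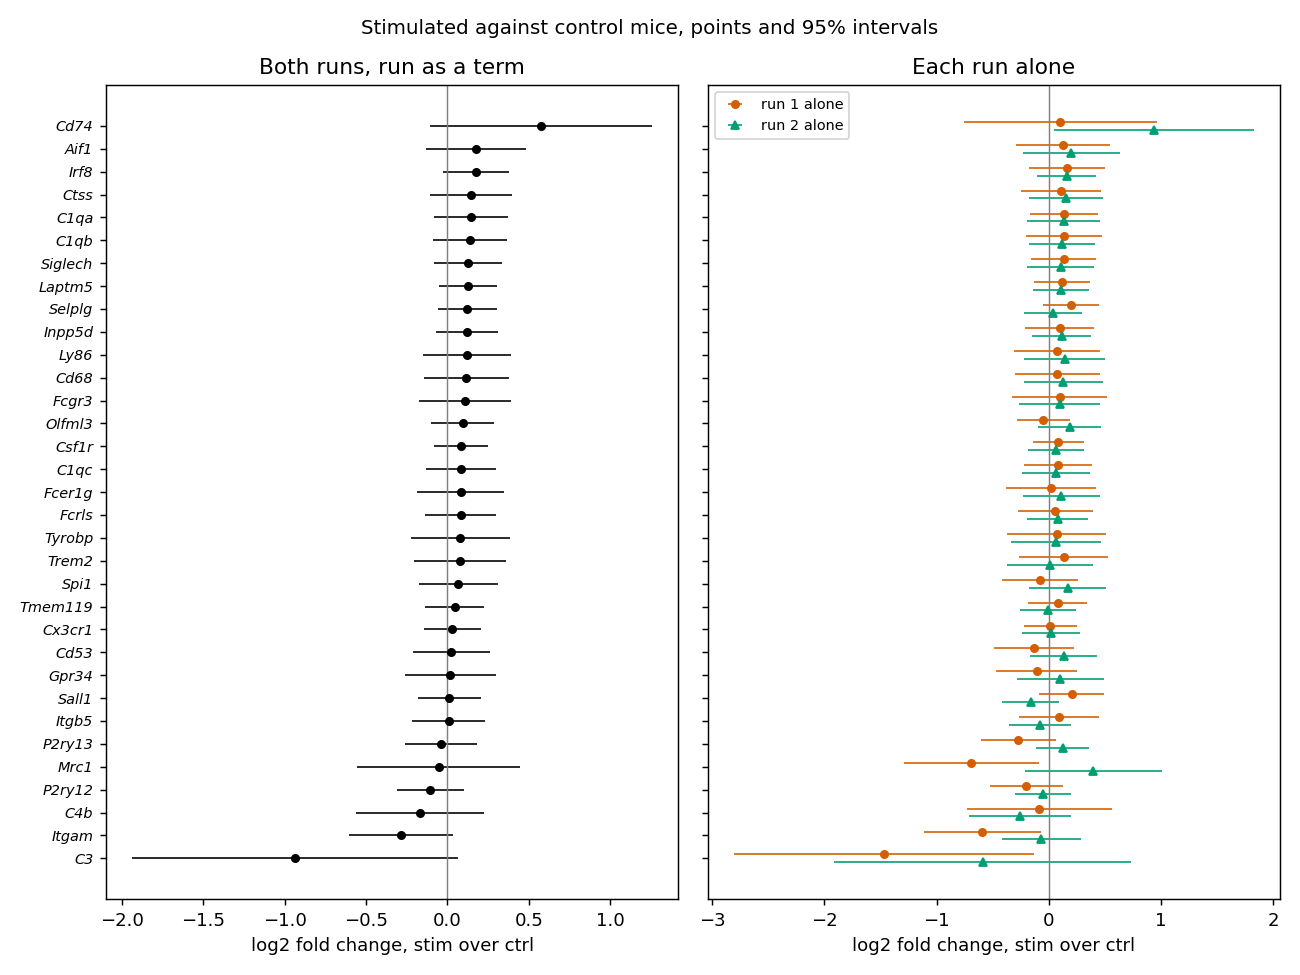
Log2 fold change of each gene in stimulated against control mice, with the 95% interval, from the fit over both runs (left) and from each run alone (right, run 1 as circles and run 2 as triangles). In the fit over both runs every interval holds 0, and C3 and Cd74 have the widest.

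Cd74 and Mrc1, which in the brain mark antigen-presenting cells and border macrophages, varied more between mice than between groups. Cd74 ranged from 14.8 to 45.4 CPM (median 19.5) and from 11.9 to 53.3 (median 16.9) in controls and stimulated mice of run 1, and from 8.23 to 23.6 (median 14.6) and 6.56 to 65.9 (median 27.0) in those of run 2. The highest values were 65.9 CPM in stimulated mouse 7, 53.3 in stimulated mouse 3 and 45.4 in control 2. The log2 fold change was 0.58 ± 0.33 (SE), with an interval from -0.11 to 1.26 and an edgeR adjusted p of 0.504, and it was 0.34 without stimulated mouse 7. The class II genes H2-Aa and H2-Ab1 were high in the same mice, with 19.0 and 30.5 CPM in stimulated mouse 7, 19.5 and 30.4 in stimulated mouse 3, and 15.4 and 26.3 in control 2. Mrc1 ranged from 2.35 to 6.12 CPM (median 4.08) and from 1.91 to 3.86 (median 2.38) in controls and stimulated mice of run 1, and from 3.74 to 6.50 (median 5.18) and 3.56 to 11.0 (median 6.76) in those of run 2. In run 2, 3 stimulated mice lay above all 6 controls, whereas in run 1, 3 of 4 stimulated mice lay below 5 of 6 controls. The summed level of 4 border macrophage markers, Mrc1 among them, was 6.79 to 16.4 CPM in controls and 6.56 to 20.4 CPM in stimulated mice. The log2 fold change of Mrc1 was -0.05 ± 0.24 (SE), with an edgeR adjusted p of 0.952.

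**Figure D3:**
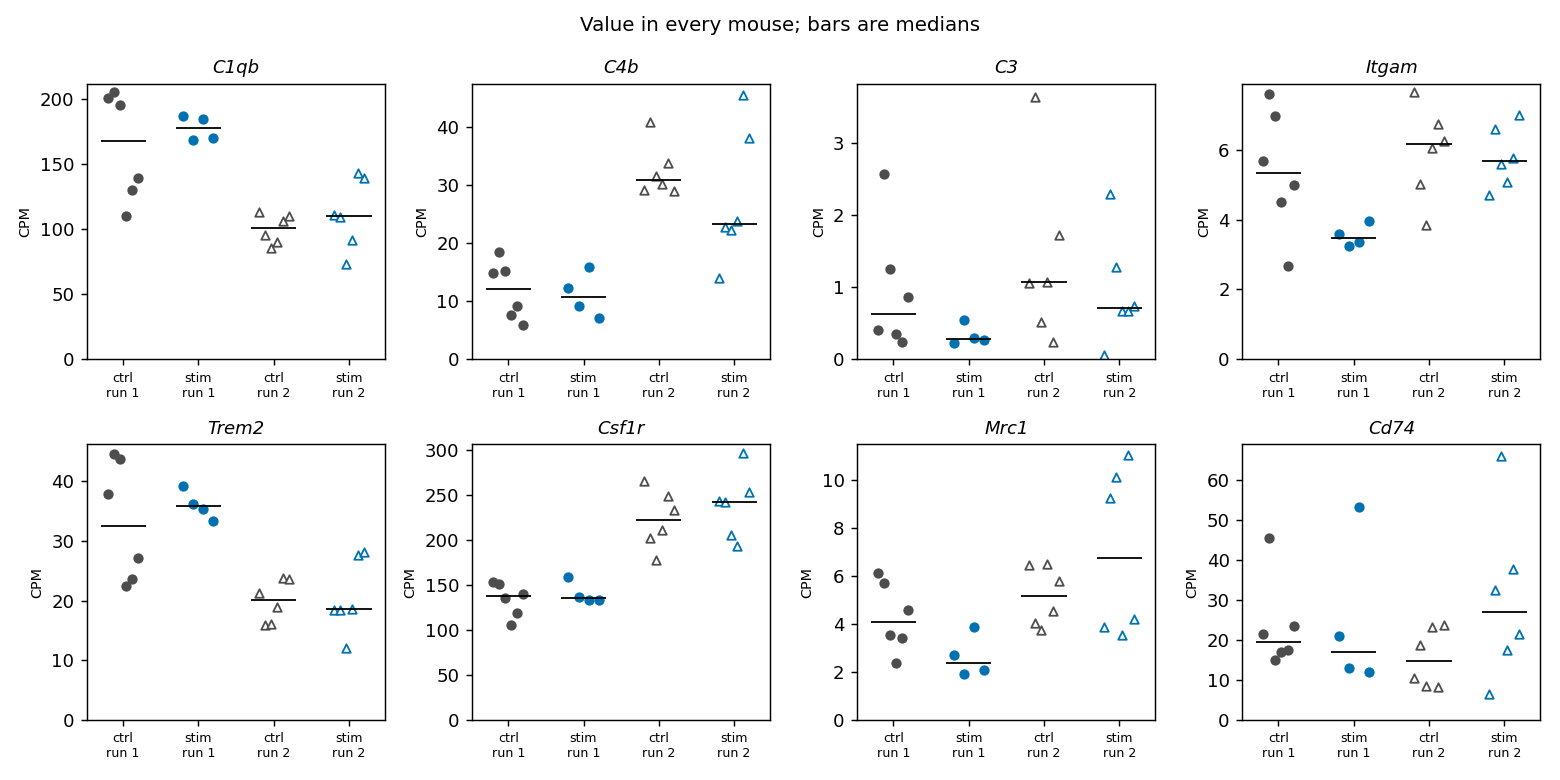
Value in every mouse in CPM for 8 of the genes, with control mice in grey, stimulated mice in blue, run 1 as filled circles and run 2 as open triangles, and the median of each set as a bar. C1qb and Trem2 are lower in run 2 and C4b and Csf1r higher, whereas stimulated and control mice of the same run overlap.

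Each run was then fitted alone. In run 1, 3 of the 33 genes had an unadjusted p under 0.05, against 5.56% of all genes, and all 3 were lower in stimulated mice: C3 (log2 fold change -1.47), Mrc1 (-0.69) and Itgam (-0.59). In run 2 this held for 1 gene, Cd74, which was higher (0.94), against 12.4% of all genes. None of these passed adjustment in edgeR, where the smallest adjusted p of the 33 genes was 0.869 in run 1 and 0.379 in run 2. The difference of the effect between the runs was tested as an interaction. It had an unadjusted p under 0.05 for 2 of the 33 genes, against 8.01% of all genes. These were Mrc1, with -0.69 in run 1 and 0.40 in run 2 (p = 0.0152), and P2ry13, with -0.27 and 0.12 (p = 0.034). The smallest adjusted p of the 33 genes was 0.563.

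In the controls of each run, the 3 mice with the highest shares of counts on mitochondrial genes also had the 3 highest summed levels of the 33 genes. The summed CPM of the 33 genes was 1924, 2038 and 1861 in controls 1, 2 and 3, whose mitochondrial shares were 4.41, 4.81 and 3.04%. In controls 4, 5 and 6 of the same run it was 1200.3, 1264 and 1485, with shares of 1.99, 1.63 and 1.68%. In run 2 it was 1658, 1609 and 1596 in controls 7, 11 and 12, with shares of 1.75, 1.78 and 1.90%, and 1381, 1201 and 1354 in controls 8, 9 and 10, with shares of 1.05, 1.04 and 1.27%. Stimulated mouse 1 had both the highest share (2.80%) and the highest sum (1822 CPM) of the stimulated mice of run 1, and in run 2 stimulated mice 10 (1.80%, 1885 CPM) and 9 (1.20%, 1931 CPM) were highest in both. The order of single mice did not always follow. Control 4 had the lowest sum of the run 1 controls without the lowest share. Stimulated mouse 3 had the lowest share of the stimulated mice of run 1 (1.79%) but a higher sum (1714 CPM) than stimulated mice 2 and 4. Stimulated mouse 7 had the lowest sum of the stimulated mice of run 2 (1233 CPM) without the lowest share (1.05%). Markers of other cell types were set beside these values, none past adjustment in edgeR. All 6 oligodendrocyte markers were lower in stimulated mice, each at an unadjusted p under 0.05, against 11.5% of all genes. Among them were the myelin genes Mbp (log2 fold change -0.77, adjusted p = 0.349) and Mobp (-0.91, adjusted p = 0.333). The 6 markers summed to 3121 to 6162 CPM in the controls of run 1 and 3285 to 5702 CPM in its stimulated mice. In run 2 they summed to 3481 to 19204 CPM (median 5017) in controls and 2281 to 4460 CPM (median 3546) in stimulated mice. All 6 neuronal markers had positive values, with the largest for Slc17a7, a vesicular glutamate transporter (0.16, adjusted p = 0.363), and summed to 6456 to 11260.0 CPM and 7355 to 12018 CPM. Both choroid plexus markers had negative values, with -1.88 for Ttr (adjusted p = 0.313). They summed to 3.40 to 130.1 CPM and 9.84 to 16.0 CPM in controls and stimulated mice of run 1. In those of run 2 they summed to 11.1 to 42.2 CPM and 4.65 to 10.6 CPM. Control 3 of run 1 had 127 CPM of Ttr. All 5 astrocyte markers had negative values (-0.22 to -0.09). Their summed level ranged from 1095 to 2163 CPM in the controls of run 1, from 1141 to 1621 CPM in its stimulated mice, from 2019 to 2745 CPM in the controls of run 2 and from 1529 to 2884 CPM in its stimulated mice. The part of the mitochondrial share or of these cell types in the level of these genes was not tested. Over all mice the summed level ranged from 1200.3 to 2038 CPM in controls (median 1540.4) and from 1233 to 1931 CPM in stimulated mice (median 1609.9). Stimulated minus control means were 57.5 CPM in run 1 and 114 CPM in run 2. The medians of controls and stimulated mice were 1673 and 1670 CPM in run 1, and 1489 and 1568 CPM in run 2. With the mitochondrial share added to the fit, 18 of the 33 genes had an unadjusted p under 0.05, all higher in stimulated mice, against 6.63% of all genes called in that direction. The median log2 fold change was then 0.20, and the 18 included C1qa (0.26), C1qb (0.26), C1qc (0.20), Ctss (0.29), Aif1 (0.35) and Irf8 (0.27). None passed adjustment, the smallest adjusted p being 0.383 in edgeR. The part of RNA quality in these values was not tested, and RNA integrity was not used in the fit.

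**Figure D4:**
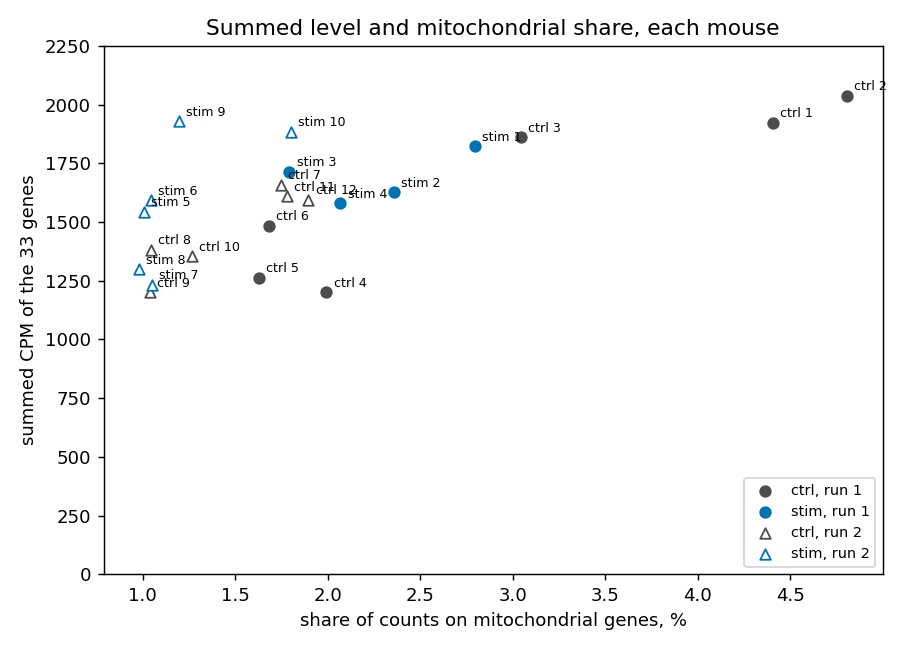
Summed CPM of the 33 genes against the percentage of counts on mitochondrial genes, with 1 point for each mouse, control mice in grey, stimulated mice in blue, run 1 as filled circles and run 2 as open triangles. Controls 1, 2 and 3 have the highest shares (3.04 to 4.81%) and summed levels from 1861 to 2038 CPM.

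The runs differed far more than the groups did. With edgeR's quasi-likelihood test of the run term, 25 of the 33 genes had an adjusted p under 0.05, against 68.1% of all genes. Of these, 16 were lower in run 2, against 34.3% of all genes, and 9 were higher, against 33.7% of all genes. The share over all 33 genes was therefore close to the background. Genes that were lower included Ly86, which encodes a partner of a Toll-like receptor relative, with 24.3 to 46.7 CPM in run 1 and 12.6 to 29.6 CPM in run 2 (log2 fold change -1.04 ± 0.13, SE), Tyrobp (-0.93 ± 0.15), Fcer1g (-0.92 ± 0.13), Trem2 (-0.77 ± 0.14) and the 3 chains of C1q (-0.69 to -0.64). Genes that were higher included C4b (1.40 ± 0.20), Inpp5d, a lipid phosphatase that dampens receptor signals (1.13 ± 0.10), Sall1, a factor of microglial identity (0.86 ± 0.09), and Csf1r (0.75 ± 0.08). For 3 genes the runs did not overlap in CPM, against 26.1% of all genes. Csf1r had 106 to 159 CPM in run 1 and 178 to 297 CPM in run 2, Inpp5d 8.50 to 13.1 and 19.2 to 30.9 CPM, and Sall1 9.64 to 14.7 and 17.5 to 26.9 CPM.

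The run difference went with transcript length: all of the short members were lower in run 2, while the longer ones differed in both directions. Across the 33 genes the Spearman correlation of the run difference with the length of the longest transcript was 0.71, and across 17516 genes it was 0.67. Genes share libraries and are not independent replicates, so this is a description. All 11 members with a longest transcript under 2000 bases were lower in run 2, 9 of them past the test (81.8%), against 90.4% lower and 72.9% called lower among all genes of such length. Their median difference was -0.68 on the log2 scale, and that of those genes was -0.64. The other 22 members had a median of 0.09, with 7 called lower (31.8%) and 9 called higher (40.9%), against a median of 0.18, 21.0% and 44.4% among all genes of at least that length. Tyrobp and Fcer1g had the shortest transcripts at 597 and 683 bases. Trem2 (4784 bases), Ly86 (2684 bases) and Olfml3 (5465 bases) were lower in run 2 in spite of long annotated transcripts. The order of levels therefore depended on the run. Csf1r had 23.7 RPKM in run 1 and 40.1 RPKM in run 2, and Tyrobp 69.6 and 36.7 RPKM.

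**Figure D5:**
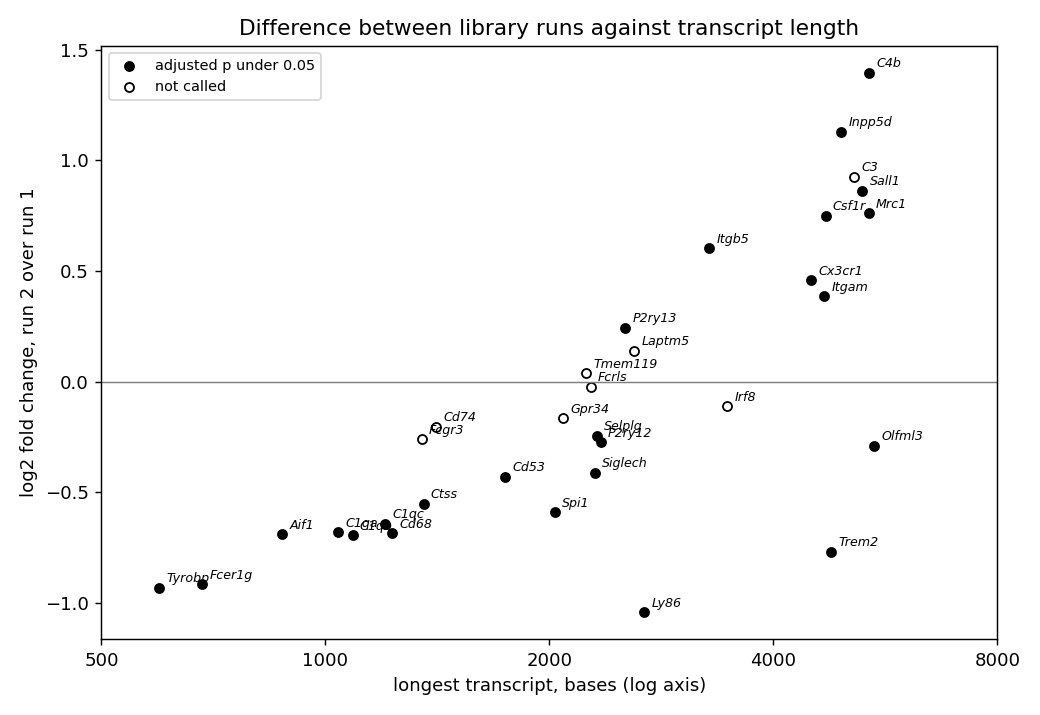
Log2 fold change of run 2 over run 1 for each gene against the length of its longest transcript in bases (log axis), with filled points for an adjusted p under 0.05. Short transcripts such as Tyrobp (597 bases) lie below 0, and the highest points, C4b and Inpp5d, have long transcripts.

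Pairs of genes were compared within each run, over 9 pairs and 18 relations in all. Most were chosen because their products work together, but Cx3cr1 with P2ry12 only as receptors of microglia and Mrc1 with Cd74 only as macrophage genes. The measures were Pearson's r and Spearman's rho of log2 CPM, with two-sided permutation tests adjusted by Benjamini-Hochberg over the 18. C1qa and C1qc had an r of 0.98 in run 1 (n = 10, rho = 0.93, adjusted permutation p = 6.75e-05 and 0.00126) and of 0.94 in run 2 (n = 12, rho = 0.86, adjusted permutation p = 8e-05 and 0.00154). Without the 2 mice farthest from the median of C1qa, r was 0.95 and 0.91. Trem2 and Tyrobp had an r of 0.97 in run 1 (rho = 0.99, adjusted permutation p = 6e-05 and 9e-05) and of 0.93 in run 2 (rho = 0.88, adjusted permutation p = 6e-05 and 0.000936), with 0.94 and 0.84 without the 2 farthest mice. Of the remaining pairs, r was 0.96 and 0.87 for Fcgr3 with Fcer1g, 0.78 and 0.68 for Spi1 with Csf1r, 0.72 and 0.76 for Cx3cr1 with P2ry12, and 0.65 and 0.75 for Mrc1 with Cd74 in run 1 and run 2. In each run 8 of the 9 pairs had an adjusted Pearson p under 0.05 by permutation. The exception in both was C3 with C4b, with r of 0.35 and 0.42 (adjusted permutation p = 0.324 and 0.180), where the sign turned without the 2 farthest mice (-0.47 and -0.51). Libraries share depth and composition. Such links were also set beside all gene pairs, which cannot show how much shared cell composition links genes of the same cell type. The median r over the 528 pairs of the 33 genes was 0.77 in run 1 and 0.71 in run 2, and over all gene pairs -0.002 and 0.000. The genes that followed the others least in run 2 were C3, Cd74 and Mrc1, with median r to the other members of -0.12, -0.05 and 0.14, and in run 1 Cd74 (0.30).

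Genes around the group were taken from fixed lists. Of 33 other complement genes tested, 17 were higher and 16 lower in stimulated mice and 0 passed adjustment in edgeR (6 at an unadjusted p under 0.05, of which 5 were lower). For these lists, too, 11.5% of all genes had an unadjusted p at that level. The smallest p was that of Cd46, a regulator that protects cells from complement (log2 fold change -0.71 ± 0.25, adjusted p = 0.349), followed by C8g (-0.28 ± 0.11) and Csmd3, a synaptic protein with complement-control domains (-0.28 ± 0.11). Of 12 ligands, 7 were higher and 5 lower, with 2 at an unadjusted p under 0.05 and 0 past adjustment. These were Mif (0.16 ± 0.06) and Il34 (0.20 ± 0.09), the neuronal ligand of Csf1r, which had 48.9 to 106.7 CPM in controls and 66.9 to 93.8 CPM in stimulated mice. Of 23 activation and phagocytosis genes, 10 were higher and 13 lower, 2 of them at an unadjusted p under 0.05: Hmox1, heme oxygenase 1 (0.32 ± 0.11), and Gpnmb, a lysosomal glycoprotein (-1.17 ± 0.49), whose controls reached 60.9 CPM against a median of 4.78. Of 14 genes of border macrophages and MHC class II, 7 were higher and 7 lower. H2-DMa, which loads peptides onto class II molecules, had the smallest p of all the lists (0.30 ± 0.09, p = 0.00276, edgeR adjusted p = 0.329). H2-Eb1 came next within its own list (0.67 ± 0.30), and 0 passed adjustment. Of 42 other microglial genes, 24 were higher and 18 lower, with 1 at an unadjusted p under 0.05, the nucleotide receptor P2ry6 (0.30 ± 0.13), and 0 past adjustment.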

How the data were processed

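Bulk ACC tissue of 12 control and 10 stimulated mice was sequenced from one end (50 bases) after amplification of full-length cDNA from 5 ng of total RNA, without molecular identifiers. The authors used cutadapt 1.10 for trimming and STAR 2.5.3a for alignment to mm10, and counted unique alignments per gene of Ensembl 95 with HTSeq 0.6.1p1. The strand setting was not given in the sources used here. The authors deposited counts per mouse, the counts divided by size factors (a signal, not tested here), and the log2 fold changes and p-values of their own comparison (DESeq2 1.22.1 with RNA integrity and batch, with decimal commas), which were not used. There were 0 other columns of per-sample values.

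Counts were fitted with edgeR 4.0.16 (TMM, glmQLFit, glmQLFTest) in R 4.3.3, with library run (numbers 1 to 11 against 12 to 23) and group as terms, on the 17524 genes that reached 10 counts in 10 or more mice. P-values were adjusted over all of these by Benjamini-Hochberg. RNA integrity and batch are not in the labels, and the run stands in for the 2 cohorts without being stated to be the batch. The method was tested on simulated counts. Alternatives were DESeq2 1.42.0, limma 3.58.1 voom, DESeq2 size factors, other count minimums, no run term, each run alone, the mitochondrial share as a covariate, the replicate block and leaving out each mouse. Correlations used log2 CPM with a prior count of 2 and 100000 resamples in Python 3.11.15 with scipy 1.17.1. Intervals of log2 fold changes are 95% intervals. Coordinates are from GENCODE M21 (GRCm38), which held 37772 of 37786 identifiers. CPM and RPKM were computed here from the counts, and counts cover reads, not molecules. The p-values of the fits set a difference against the variation between these mice.

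The genes and lists were chosen with earlier results of these data known. All 33 genes were to be named, 15 of them with values by group and run, and at most 3 genes with the smallest p from each further list. Itgam, Ly86, Inpp5d and Sall1 were given with values by group or run after their values were seen. The motif was also chosen with results known. Over 231 pairs of libraries the smallest mean chi-square per gene was 9.95, so no 2 were copies. Deviations of same-numbered mice from their group and run means correlated at 0.0511 on average, and 3 of 10 pairs were over 0.1, so the replicate numbers do not pair the mice.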

Additional observations from a re-analysis of the deposited data

Results flagged for a closer look

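In 132 sets (33 genes in 4 sets of mice, by group and run), 5 values lay far from the rest of their set by Dixon's test at the 95% level. Chance flags about 1 in 20 such sets. Stimulated mouse 1 was high in run 1 for 3 genes: it had 159 CPM of Csf1r against 134 to 136 CPM in the other 3 stimulated mice, 56.8 CPM of Tyrobp against 44.0 to 44.9 CPM, and 42.7 CPM of Ly86 against 36.2 to 36.7 CPM. Control 9 was low for Fcrls, an Fc receptor-like gene of microglia, with 31.9 CPM against 41.7 to 47.0 CPM in the other 5 controls of run 2. Control 2 was high for Cd74, with 45.4 CPM against 14.8 to 23.5 CPM in the other 5 controls of run 1.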

How the results depend on the processing

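No alternative brought any of the 33 genes to an adjusted p under 0.05 between stimulated and control mice. The number at an unadjusted p under 0.05, 0 as reported, was 3 in run 1 alone, 1 in run 2 alone, 18 with the mitochondrial share as a covariate, 2 with no count minimum (C3 and Cd74, against 9.81% of all genes), 1 with the DESeq2 Wald test, 1 with limma voom and 1 with the replicate block (C3, log2 fold change -1.04, against 11.4%). Leaving out each mouse in turn gave 0 to 3 such genes, against 8.64 to 13.9% of all genes. These were Selplg, Irf8 and Laptm5 without stimulated mouse 7, C3 and Itgam without control 5, control 9 or stimulated mouse 6, C3 without control 11, Itgam without control 8 or stimulated mouse 10, and Cd74 without control 2 or stimulated mouse 2, 4 or 5. Across the mice left out, 22 to 28 genes had positive values and the median log2 fold change was 0.02 to 0.13. Uncalled genes near 0 changed sign in places: 8 without the run term (largest reported value 0.12), 4 in run 1 alone, 5 in run 2 alone, 3 with the mitochondrial share, 2 with limma, 2 with at least 10 counts in every mouse (where C3 was not tested), 1 with the replicate block, and 0 to 5 with a mouse left out. No paired analysis is drawn from the block, since the replicate numbers do not pair the mice. Directions of genes called between the runs held in all alternatives run. The cause of these changes was not tested. C3 rested on 2 to 105 counts per mouse.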
